A study of Mus musculus with 58 samples.

Results

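The loci of 5 genes that act in oocyte growth, meiosis and the first cell divisions (Kit, Gdf9, Zp3, Mos and Dppa3) were examined for acetylation of histone H3 at lysine 27 (H3K27ac) in mouse full-grown oocytes. They were taken as 5 fixed genome intervals of the mm9 build, each holding the gene and flanking sequence. Together they hold 44 complete windows of 5 kb, of 494453 such windows on the autosomes. The series comprises 58 samples of histone marks, most from oocytes and early embryos, profiled with STAR ChIP-seq, which immunoprecipitates chromatin from few cells. The 4 samples used here carry the label FGO, full-grown oocyte. Of these, 2 have the genotype label Setd2+/- and served as the control, and 2 have the label Setd2-/- and come from a maternal knockout. Setd2 encodes the methyltransferase that places H3K36me3. The age of the females that gave these oocytes, and the promoter that drove the deletion, were not stated in the labels. Whether that promoter shares sequence with any of the 5 loci is therefore not known. Reads from such a transgene could not be told apart from those of the locus itself. The replicates of each genotype were deposited as a single track. Each genotype is therefore 1 pool, no difference below has a replicate check, and no test was made. Values are the authors' RPKM, a read density scaled to bin length and library size, and intervals on ratios cover counting error only. Those intervals leave out any spread between replicates and are too narrow wherever there is such a spread. Reads were also more uneven along the loci than independent counts, which does not measure that spread. The tracks are relative to library size and give no absolute amount of H3K27ac.

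H3K27ac is found at active promoters and enhancers, and oocytes lay down most of their maternal RNA while they grow inside the follicle. Kit, a receptor tyrosine kinase on the oocyte surface, receives Kit ligand from granulosa cells and promotes growth. Gdf9 is a growth factor of the TGF-beta family that the oocyte secretes and that acts on the surrounding follicle cells. Zp3 is a glycoprotein of the zona pellucida, the egg coat to which sperm bind. Mos is a kinase that activates the MAP kinase pathway in meiosis and holds the ovulated egg in metaphase of the second division. Dppa3, also called Stella or PGC7, is a maternal factor that protects maternal DNA methylation after fertilization and is needed for normal cleavage.

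Promoter sequences were matched by symbol to a RefSeq table of GRCm38.p6, which held an entry for 2 of the 5 genes, Zp3 and Kit. They are shown because no other member had an entry, and a link between their sequence and the H3K27ac of their loci was not tested. Each runs from 250 bases before to 50 bases after the start of the gene on the plus strand, and capitals mark every match to CANNTG, the E-box, which reads as the same motif on both strands. Zp3 is at chr5:135979855-135980154 and the first of 2 overlapping Kit entries is at chr5:75574737-75575036. These are GRCm38 positions and cannot be placed on the mm9 tracks.
Zp3: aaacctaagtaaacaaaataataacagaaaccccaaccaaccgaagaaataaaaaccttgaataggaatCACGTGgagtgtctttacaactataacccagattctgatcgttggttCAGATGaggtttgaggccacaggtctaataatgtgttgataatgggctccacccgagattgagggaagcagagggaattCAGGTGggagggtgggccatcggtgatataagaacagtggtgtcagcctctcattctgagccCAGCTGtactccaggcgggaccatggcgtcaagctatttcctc
Kit: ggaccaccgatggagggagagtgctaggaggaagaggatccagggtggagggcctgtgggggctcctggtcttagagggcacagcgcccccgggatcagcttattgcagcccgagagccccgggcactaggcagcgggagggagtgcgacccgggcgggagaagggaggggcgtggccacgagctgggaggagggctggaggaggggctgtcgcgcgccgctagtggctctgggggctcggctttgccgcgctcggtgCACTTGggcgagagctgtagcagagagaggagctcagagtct

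The Zp3 promoter held 4 E-boxes, whose first bases lay 181, 134 and 55 bases before the start and at position 8 of the transcript. Of 32851 promoters in the table, 72.3% held at least 1 match and 6.49% held 4 or more. Kit held 1 match, at position 9. The 2 promoters differed in base composition: Zp3 had 46.3% G and C and 7 CpG sites, and Kit had 69.0% and 20 CpG sites, against medians of 52.7% and 7 over the table. Kit held 1 match to GGGCGG, found on either strand in 35.7% of promoters, and Zp3 held none. TAATTG, present in 8.00% of promoters on either strand, and TATAAA, present in 13.6%, were in neither of these windows.

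H3K27ac was higher at all 5 loci in knockout, and at Gdf9 and Zp3 the difference exceeded 2-fold. Of 44626 autosomal windows of 25 kb that reached the genome-wide mean, 53.7% were higher in knockout and 12.2% at least 2-fold higher. In the control pool the 5 loci had similar levels, with the highest 1.80 times the lowest. In the knockout pool they spread over 4.04 times, with Gdf9 first and Kit last. Levels stood above the autosomal means of both pools, 0.374 RPKM (control) and 0.387 RPKM (knockout). The pools held 30694806 control reads and 29367645 knockout reads, of which 4000 and 9083 lay in the 5 loci.

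**Figure D1:**
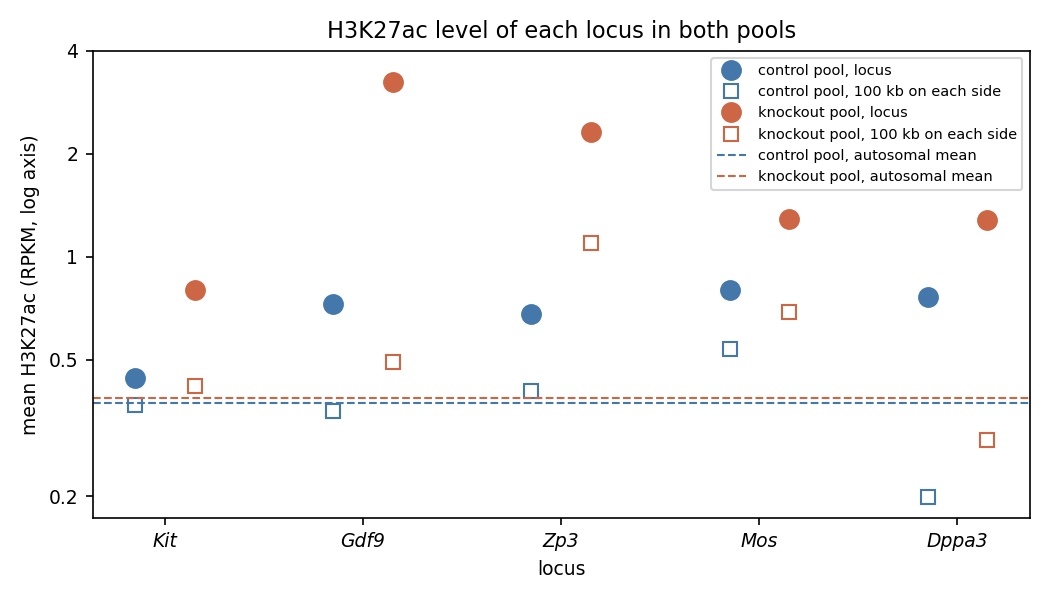
Mean H3K27ac of each locus (filled circles) and of the 100 kb on each side of it (open squares) in the control and knockout pools, in RPKM on a log axis, with dashed lines at the autosomal means. Each symbol is 1 pool of 2 replicates without an error bar; every filled knockout circle lies above its control circle, with Gdf9 at 3.24 against 0.730 RPKM.

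The order of the loci differed between the pools. In control, Mos was first at 0.799 RPKM, followed by Dppa3 at 0.765, Gdf9 at 0.730, Zp3 at 0.680 and Kit at 0.444 RPKM. In knockout, Gdf9 was first at 3.24 RPKM, then Zp3 at 2.31, Mos at 1.29, Dppa3 at 1.28 and Kit at 0.802 RPKM. No spread between replicates was available to say which neighbours in these orders differ. Against all autosomal windows of its own length, the control levels lay from the 58.8th percentile for Kit to the 93.4th for Mos. In knockout, Gdf9 lay at the 99.98th percentile with 16 of 98880 windows at or above it, and Zp3 likewise had 17 of 82400 windows at or above it.

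Kit, the receptor, covers the longest interval, on chromosome 5 from 75950001 to 76065000 (mm9, as all coordinates of the tracks). It had 1567 control reads and 2708 knockout reads, a knockout over control ratio of 1.81 (95% Clopper-Pearson interval 1.70 to 1.92). With 0.1 RPKM added to both pools, the ratio lay at the 87.5th percentile of those of autosomal windows of 115 kb at or above the mean. The difference was not spread evenly along the interval. In the first 20 kb the knockout pool was lower, at 0.545 against 0.661 RPKM (ratio 0.824, 0.709 to 0.956). Over the following 85 kb it was higher, at 0.878 against 0.367 RPKM (2.39, 2.21 to 2.58). In the last 10 kb the pools stood at 0.671 and 0.661 RPKM, with a counting interval of the ratio from 0.830 to 1.24. These 3 stretches were delimited after the values were seen. All 17 windows of 5 kb in the middle stretch were higher in knockout and 11 of them at least 2-fold. The mean of the control pool was higher in both end stretches than in the middle one, although its richest window of 5 kb, at 0.867 RPKM, was the first of the middle stretch, from 75970001 to 75975000. In that window knockout had 1.42 RPKM.

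The window from 75960001 to 75965000 had 129 control and 78 knockout reads, 0.841 and 0.531 RPKM, a log2 ratio of -0.58 on the scale of RPKM + 0.1, which understates changes of low windows. The window from 76045001 to 76050000 had 20 and 113 reads, 0.130 and 0.770 RPKM, a log2 ratio of 1.92. Kit had no sharp peak in either pool. Its highest window of 1 kb was 1.17 RPKM in control, from 75970001 to 75971000, where knockout had 1.33 RPKM. The highest in knockout was 1.98 RPKM, from 76037001 to 76038000, where control had 0.749 RPKM, and each was 2.77 and 2.76 times the median 1 kb window of its pool. In RefSeq's gene order of GRCm38 the neighbouring protein-coding genes are Pdgfra and Kdr, both receptor kinases, and the nearest genes of any kind are Gm24502 and Gm32558, which are not protein-coding.

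**Figure D2:**
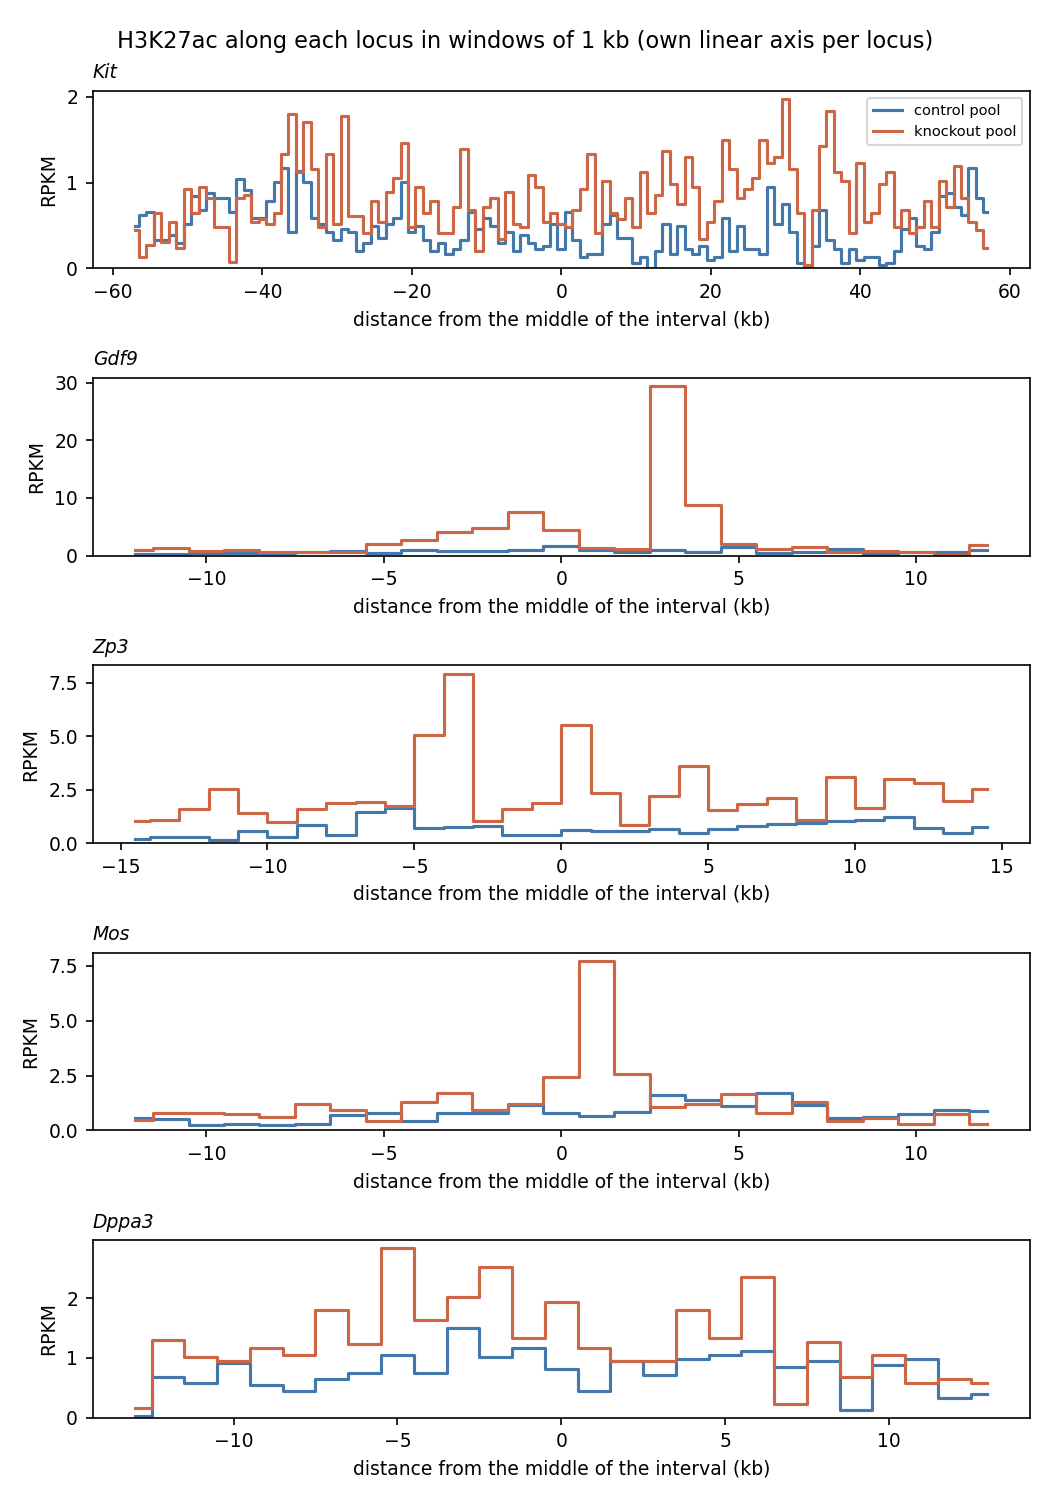
H3K27ac in windows of 1 kb along each locus, in RPKM on a linear axis of its own per locus, against the distance in kb from the middle of the interval; blue lines are the control pool and orange lines the knockout pool. Kit, Dppa3 and Zp3 differ along broad stretches, and Gdf9, Zp3 and Mos have narrow high windows in the knockout pool, led by 29.4 RPKM at Gdf9.

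Gdf9, the secreted growth factor, had the largest ratio of the 5 loci. Its interval, on chromosome 11 from 53235001 to 53260000, had 560 control and 2379 knockout reads, a ratio of 4.44 (4.05 to 4.88). On the scale of RPKM + 0.1 only 46 of 44626 autosomal windows of 25 kb at or above the mean had a ratio as high or higher. Of its 5 windows of 5 kb, 4 were at least 2-fold higher in knockout, and the last, from 53255001 to 53260000, had 115 reads in each pool. The window from 53250001 to 53255000 differed most, with 133 control and 1258 knockout reads, 0.867 and 8.57 RPKM, a log2 ratio of 3.16.

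A single run of bins carried a large part of the knockout reads at Gdf9. From 53250101 to 53251300, over 1.2 kb, each of 12 consecutive bins of 100 bp had 45 to 118 knockout reads, 1083 in all or 45.5% of the knockout reads of the locus. The edges were abrupt: the bin before the run had 8 reads and the bin after it 1. The control pool had 34 reads over the same bins, 0.923 RPKM against 30.7 RPKM in knockout. Without this run the locus stood at 0.720 RPKM (control) and 1.85 RPKM (knockout), a ratio of 2.58. A shorter run of 0.6 kb from 53246801 to 53247400 held 229 knockout and 19 control reads. In the control pool no 2 adjacent bins of Gdf9 reached 10 reads. No annotation of mm9 was used. Whether the dense runs at Gdf9, and those below at Zp3 and Mos, overlap exons was therefore not tested.

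Dense runs of that length were rare. On all autosomes, runs of at least 10 adjacent bins with 10 or more reads each numbered 57 in knockout and 19 in control. Both Gdf9 and Mos held one in knockout, and 14 of the 57, that of Gdf9 included, had at least as many reads per bin as the run at Gdf9. Single bins with 10 or more reads made up 19.2% of Gdf9 and 19.0% of Zp3 in knockout, 9.63% of Dppa3, 9.20% of Mos and 3.39% of Kit, against 1.54% of autosomal bins. In control they made up 2.80% of Mos and 0.435% to 1.11% of the other 4 loci, against 0.386% of autosomal bins. RefSeq's GRCm38 table places Uqcrq, a subunit of respiratory complex III, directly before Gdf9 with overlapping gene models, and Shroom1 as the next protein-coding gene after it. Signal of these neighbours in the interval cannot be told apart from that of Gdf9.

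**Figure D3:**
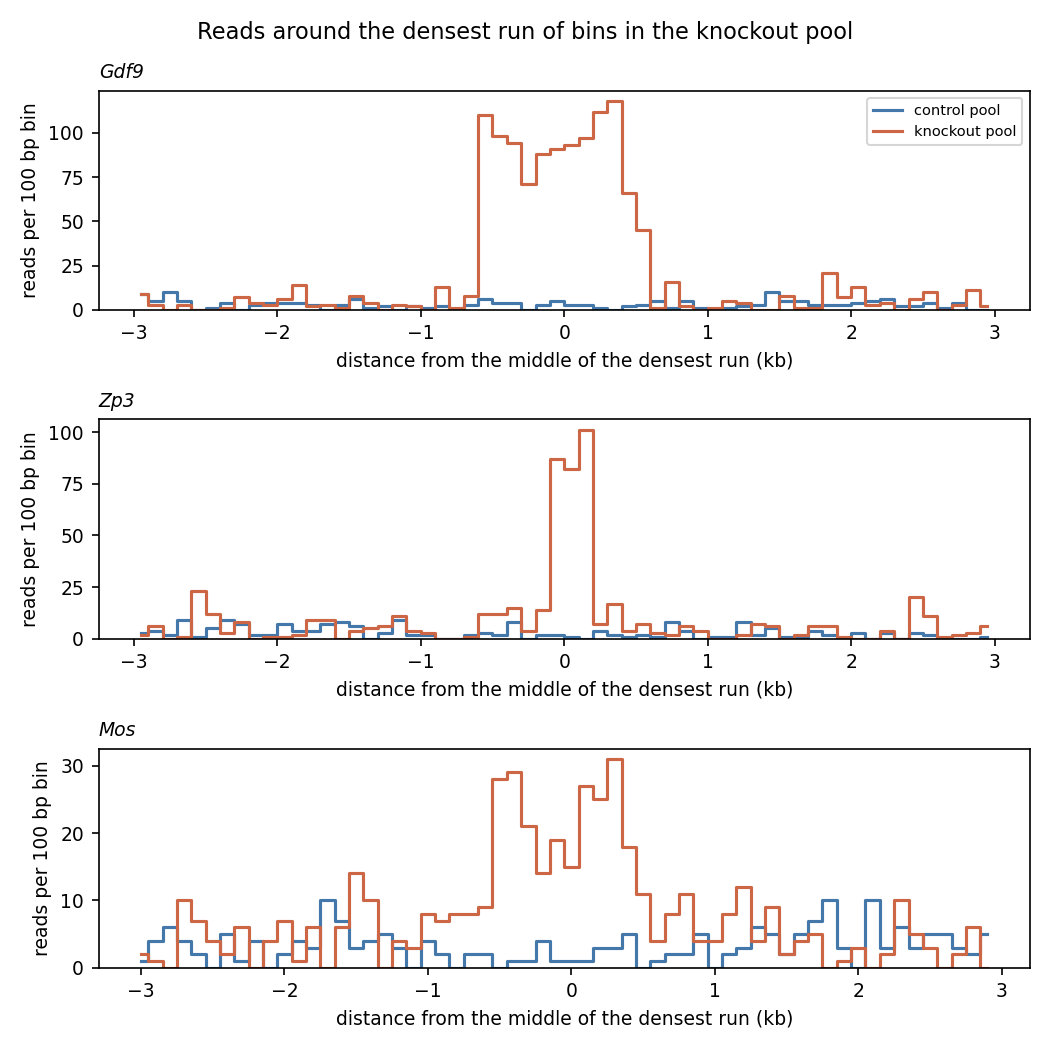
Reads per bin of 100 bp in the control pool (blue) and knockout pool (orange) within 3 kb of the densest knockout run at Gdf9, Zp3 and Mos, against the distance in kb from the middle of that run. The knockout runs reach 118, 101 and 31 reads per bin, with abrupt edges at Gdf9 and a more gradual right edge at Mos, while the control line stays at 10 reads or fewer in these panels.

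Zp3, the egg coat gene, was higher in knockout along its whole interval, on chromosome 5 from 136445001 to 136475000. It had 626 control and 2035 knockout reads, a ratio of 3.40 (3.11 to 3.72), and 159 of 37726 autosomal windows of 30 kb at or above the mean had a ratio as high on the scale of RPKM + 0.1. All 30 windows of 1 kb were higher in knockout, a count given without the share of autosomal windows of that length. Of 6 windows of 5 kb, 5 were at least 2-fold higher. The window from 136455001 to 136460000 had 92 control and 513 knockout reads, 0.600 and 3.49 RPKM, a log2 ratio of 2.36, and the window with the lowest ratio, from 136450001 to 136455000, still had 0.906 against 1.62 RPKM.

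Within Zp3 the knockout pool had several narrow runs of dense bins, shorter than the densest run of Gdf9. The densest run, from 136455801 to 136456200, held 284 knockout and 5 control reads over 0.4 kb, and the bins on either side of it had 4 and 7 knockout reads. A second run of 0.2 kb from 136460101 to 136460300 held 123 knockout and 3 control reads, 110 of the former in a single bin. Another, also of 0.2 kb, from 136464201 to 136464400, held 74 and 3 reads. Without the densest run the ratio of the locus was 2.95. The control pool was highest elsewhere, from 136454001 to 136455000, at 1.63 RPKM, where knockout had 1.74 RPKM. In RefSeq's GRCm38 gene order Zp3 lies between Ssc4d and Dtx2.

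Mos, the meiotic kinase, had the highest control level and the smallest ratio. Its interval, on chromosome 4 from 3785001 to 3810000, had 613 control and 947 knockout reads, a ratio of 1.61 (1.46 to 1.79). On the scale of RPKM + 0.1, Mos lay at the 78.7th percentile of ratios of autosomal windows of 25 kb at or above the mean. Its 5 windows of 5 kb went in both directions. The middle one, from 3795001 to 3800000, had 131 and 437 reads, 0.854 against 2.98 RPKM and a log2 ratio of 1.69. The last, from 3805001 to 3810000, had 116 and 67 reads, 0.756 against 0.456 RPKM and a log2 ratio of -0.62. A run of 1.1 kb from 3798001 to 3799100 held 238 knockout reads, 25.1% of those of the locus, and 20 control reads. Its 11 bins had 11 to 31 knockout reads each, between a bin of 9 reads and a bin of 4. Without that run Mos had a ratio of 1.25. The control pool was highest from 3803001 to 3804000, at 1.69 RPKM, where knockout had 0.783 RPKM. Mos lies between Rps20 and Plag1 among the protein-coding genes of the RefSeq table.

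Dppa3, the maternal factor, was higher in knockout over most of its interval, with no run of 10 or more dense bins. Its interval, on chromosome 6 from 122565001 to 122592000, had 634 control and 1014 knockout reads, a ratio of 1.67 (1.51 to 1.85). On the scale of RPKM + 0.1 this locus lay at the 80.8th percentile of ratios of autosomal windows of 27 kb at or above the mean. Of 27 windows of 1 kb, 25 were higher in knockout, again without an autosomal share for windows of that length. The window of 5 kb from 122570001 to 122575000 was 2.34-fold higher (1.87 to 2.95), at 1.71 against 0.730 RPKM, and the one from 122585001 to 122590000 was level, at 0.763 against 0.756 RPKM. The pools had similar shapes here. Over the 27 windows of 1 kb, which are not replicates, Pearson's r between the pools was 0.59, against 0.28 over 25 windows at Gdf9, 0.13 over 115 at Kit, 0.09 over 30 at Zp3 and 0.01 over 25 at Mos. With at most 10 reads per bin, r was 0.61 at Dppa3, 0.38 at Gdf9, 0.25 at Zp3, 0.13 at Kit and 0.06 at Mos. All windows share the same libraries. The longest knockout run at Dppa3 was 0.3 kb long and held 32 reads. Its protein-coding neighbours in the RefSeq table are Gdf3 and Nanog.

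In windows of 5 kb, 22 of the 44 were at least 2-fold higher in knockout and 0 were at least 2-fold lower. The background over 204398 autosomal windows at or above the mean was 12.2% higher and 13.4% lower. With a pseudocount of 0.5 in place of 0.1, which shrinks every ratio, 10 of the 44 were at least 2-fold higher, against 2.73% of autosomal windows. With bins limited to 10 reads, 18 of the 44 were at least 2-fold higher, against 10.2%. The 22 windows comprised 11 of Kit, 5 of Zp3, 4 of Gdf9, 1 of Mos and 1 of Dppa3. The median log2 ratio was 1.02 over the 44 windows and 0.07 over the autosomal windows. The 44 windows share 5 loci and 2 pools, so they are not independent.

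**Figure D4:**
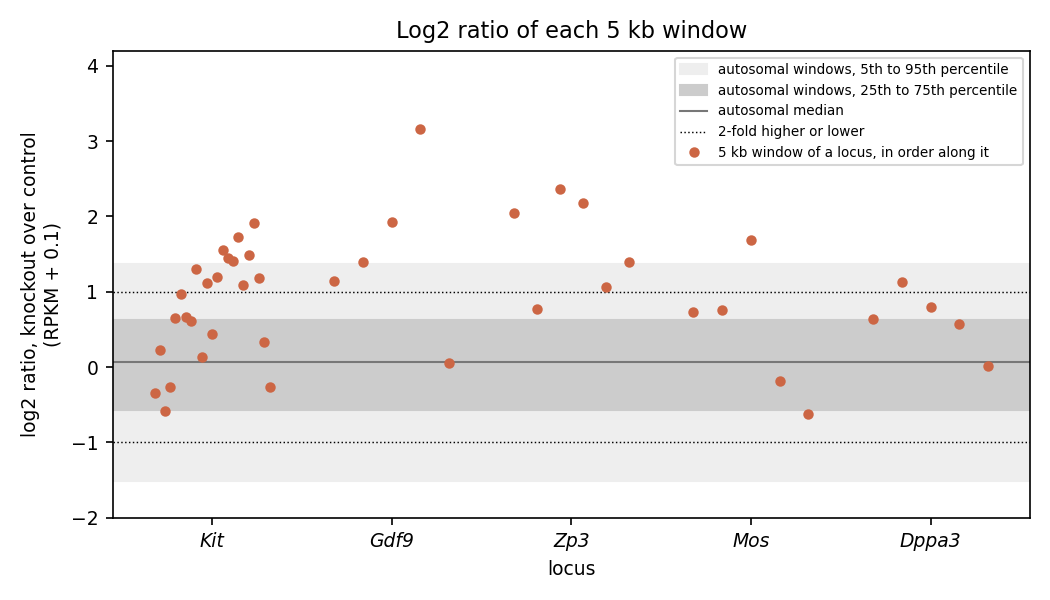
Log2 ratio of knockout over control (RPKM + 0.1) of each 5 kb window, in order along each locus, with grey bands for the 5th to 95th and 25th to 75th percentiles of autosomal windows at or above the mean and dotted lines at 2-fold. Ratios climb along most of Kit and drop at its end, and 0 windows of the 5 loci lie below the lower dotted line.

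H3K27ac-rich windows, defined as 3 times the mean of their own pool or more, numbered 1 of 44 in control and 16 of 44 in knockout. On the autosomes 1.70% of windows were rich in control and 6.21% in knockout. The control window was the one of Mos from 3800001 to 3805000, at 1.39 RPKM, which was also rich in knockout at 1.21 RPKM. All 6 windows of Zp3 were rich in knockout, with 3 of Gdf9, 3 of Dppa3, 2 of Kit and 2 of Mos.

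Against the mean of the 100 kb on both sides, the 5 loci were higher in both pools, to different extents. Gdf9 was 2.06 times its surroundings in control and 6.58 times in knockout, and the surroundings themselves had a ratio of 1.39 (1.31 to 1.47). Kit went from 1.20 to 1.91 times, with a surrounding ratio of 1.14 (1.08 to 1.21), but in control it was below the 100 kb before it, at 0.444 against 0.567 RPKM, and above the 100 kb after it, at 0.170 RPKM. Zp3 lay in a stretch that was itself higher in knockout: the 100 kb before it went from 0.456 to 1.26 RPKM and the 100 kb after it from 0.354 to 0.940 RPKM, a joint ratio of 2.71 (2.59 to 2.84). Zp3 was therefore 1.68 times its surroundings in control and 2.10 times in knockout. Mos lay between a side that was higher in knockout, with a ratio of 2.27 (2.12 to 2.43), and a side that was lower, with 0.728 (0.680 to 0.778). Dppa3 stood out most from poor surroundings in control, at 3.85 times, and had 4.39 times in knockout.

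Dense bins carried part of the difference at Gdf9, Zp3 and Mos, and little of it at Kit and Dppa3. Bins with 20 or more reads held 66.6% of the knockout reads of Gdf9, 35.3% of those of Zp3, 19.2% of those of Mos, 2.07% of those of Dppa3 and 0.739% of those of Kit, and none of the control reads of any of the 5. When each bin counted for at most 10 reads, the ratios were 1.89 at Gdf9, 2.30 at Zp3, 1.37 at Mos, 1.77 at Kit and 1.57 at Dppa3. All 5 loci stayed higher in knockout, but only Zp3 exceeded 2-fold. The limit acts mainly on the knockout pool, which held most of the dense bins, so a fall of these ratios was built in. Counted that way, 51.8% of autosomal windows of 25 kb were higher and 10.01% at least 2-fold higher. Without a pseudocount, the ratio of Gdf9 then lay at the 87.7th percentile of autosomal windows of its length, Zp3 at the 94.6th, Kit at the 88.9th, Dppa3 at the 78.5th and Mos at the 69.5th. Zp3 was then below its surroundings, whose ratio was 2.56, while Kit, Gdf9, Dppa3 and Mos stayed above theirs, at 1.11, 1.36, 1.15 and 1.23. The variance of reads per bin over their mean was 44.1 in knockout against 2.03 in control at Gdf9, and 3.48 against 2.26 at Kit.

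**Figure D5:**
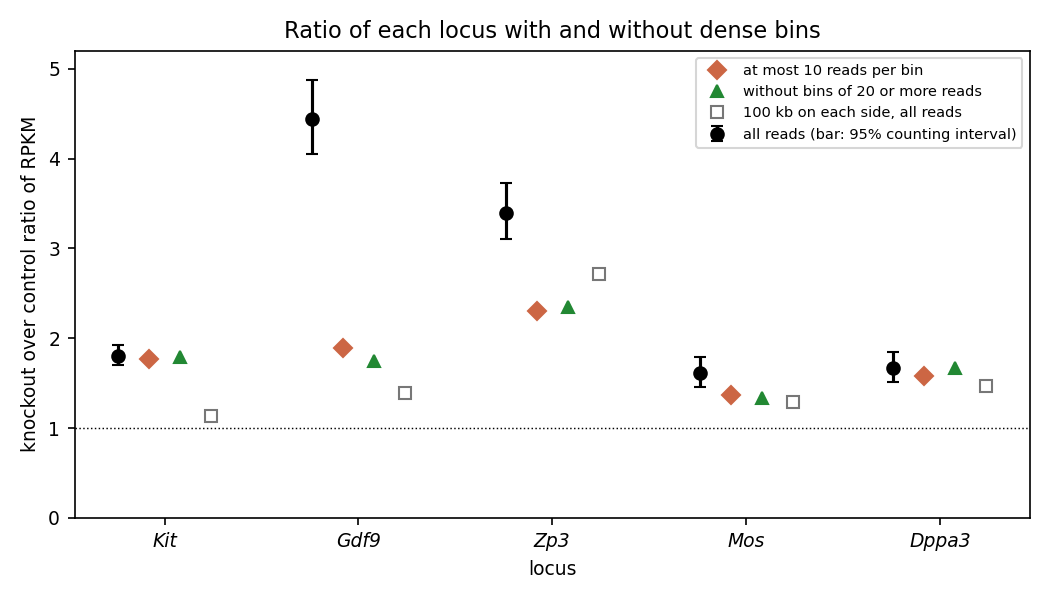
Knockout over control ratio of RPKM for each locus with all reads (black, bars are 95% counting intervals), with at most 10 reads per bin (diamonds) and without bins of 20 or more reads (triangles), and for the 100 kb on each side with all reads (open squares). Gdf9 goes from 4.44 to 1.89 and 1.75 when dense bins are limited or removed, whereas Kit stays between 1.77 and 1.81.

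Breadth, the share of bins of 100 bp that held any read, did not follow the level. At Zp3 it was 76.3% in control and 84.7% in knockout, at Kit 55.8% and 62.2%, and at Gdf9 76.8% and 78.0%. At Dppa3 it was 75.9% and 75.6%, and at Mos it was lower in knockout, at 76.4% and 71.6%. Over the autosomes the share was 44.0% in control and 33.6% in knockout, a larger fall than at any of the 5 loci. Autosomal windows of its length were split into 10 equal classes by control level, and the class of each locus had median ratios of 0.869 for the length of Gdf9, 0.864 for Zp3, 0.984 for Kit, 0.770 for Mos and 0.762 for Dppa3. All 5 loci had ratios above 1, and these classes had medians below 1. Control level sets the class and also divides the ratio, so low medians in high classes are partly built in. The contrast is therefore a description only.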

How the data were processed

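H3K27ac libraries of full-grown oocytes were made by STAR ChIP-seq, and the authors deposited 1 track per genotype, which per the labels holds both replicates. The deposited values are RPKM per bin of 100 bp with empty bins left out, a unit inferred from their sum. The build mm9 and Bowtie2 2.2.2 come from the submitters' processing notes. Whether reads were extended or deduplicated, and whether an input was used, is not given in the sources used here. Reads were recovered as whole multiples of the value of 1 read (0.326 RPKM in control, 0.341 in knockout), which 100% of values met within 0.0051 RPKM. Bins without a line counted as 0.

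Levels, ratios and windows were computed with NumPy 2.4.6, SciPy 1.17.1 and pandas 2.3.3 in Python 3.11.15, and drawn with matplotlib 3.10.9, and the code was tested on simulated data. Windows were compared when their mean over both pools reached 0.379 RPKM, the mean over autosomes and X, and called at 2-fold on log2(RPKM + 0.1). The ratio of a whole locus has no pseudocount. The last 2 kb of the Dppa3 interval lie outside its 5 kb windows. The 5 genes are the members fixed by the rule, and windows named are the extremes of each locus. Members, intervals and lists were chosen with earlier results of these data known. No annotation of mm9 was used, so genes inside an interval were not placed, and 17 further oocyte genes and the Setd2 locus were not analysed here. Alternatives were other scalings, pseudocounts, filters, folds and interval ends, and limits on dense bins. The other 54 samples were not analysed here.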

Additional observations from a re-analysis of the deposited data

How the results depend on the processing

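No paired analysis was possible because each track pools both replicates of a genotype, and leaving out a replicate was not run for that reason. All 35 alternative ratios, 7 for each locus, stayed above 1. The scalings and the pseudocount could not take ratios of this size below 1, so those outcomes were fixed in advance. Of the 35, 21 lay within the counting interval of the locus. Scaling by the autosomal mean or by the autosomal median of 0.07 (log2) left all 5 there. Outside it at Gdf9, with 4.44 as reported, were 1.89 with at most 10 reads per bin, 5.76 with the interval shortened by 20% of its length at each end, 3.52 with it widened by 10 kb, 4.03 with a pseudocount of 0.1 RPKM and 1.75 without bins of 20 or more reads. At Zp3, with 3.40 as reported, these were 2.30 with at most 10 reads per bin, 3.09 with the pseudocount and 2.35 without dense bins. At Kit, with 1.81, they were 2.31 shortened, 1.68 widened and 1.66 with the pseudocount. At Mos, with 1.61, they were 1.37 with at most 10 reads per bin, 1.85 shortened and 1.34 without dense bins. At Dppa3 all 7 lay inside it. The removal of dense bins, and the limit of 10 reads in windows of 5 kb, were chosen after seeing the data. The 22 windows at least 2-fold higher became 10 with a pseudocount of 0.5 (2.73% of autosomal windows) and 18 (10.2%) with bins limited to 10 reads. At 1.5-fold 31 were higher and 1 lower, against 26.7% and 24.5% of autosomal windows. At 2 times the mean, rich windows numbered 13 in control and 30 in knockout, against 13.5% and 16.1% of autosomal windows. Depth limits single windows most: the poorest 5 kb window, in Kit, rested on 20 control reads.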
